A study of Mus musculus with 24 samples.

Results

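The genes described here are those that changed in Cux2 callosal projection neurons (CPN) between postnatal day (P) 1 and P7, with P3 as the step between. CPN of the upper cortical layers send axons through the corpus callosum to the other hemisphere and use glutamate as their transmitter. In the first postnatal week such neurons finish their migration, extend their axons towards the target cortex, and begin to form dendrites and synapses. Genes of growth and of neuronal identity are typically active early in this period, and genes of synaptic release, inhibition and excitability become active later.

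A gene was used when its expression reached at least 10 FPKM (fragments mapped to a transcript, scaled to its length and to the size of the library) at P1, P3 or P7 in Cux2 CPN, and 8149 of the 9767 genes in the table did so. Entries with symbols that begin with Mir, Snor, SNOR, or AC or AL and digits (36) and Gm-number genes listed at 0 in all groups of a class (17) were left out, which left 8096 genes. The lowest maximum among the genes used was 10.0014 FPKM, and the highest among the 1527 genes left out for their level was 9.9996 FPKM.

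Cux2 CPN came from the somatosensory and motor cortex of mice labelled as C57BL/6, kept on a mixed C57BL/6J background according to the methods, that carried Cux2-CreERT2 and the Ai14 reporter, a Cre-dependent tdTomato allele. All groups had received 4-hydroxytamoxifen through the mother, at a late embryonic stage according to the methods. Tle4 corticothalamic projection neurons (CThPN) of layer 6, used for comparison, carried Tle4-2A-CreERT2 and Ai14 and were otherwise treated alike. Labelled cells were isolated by fluorescence-activated sorting after papain digestion, and each library pools 10 animals of both sexes according to the methods. Each group was sequenced as 2 libraries, but the table gives 1 pooled value per gene and group, so no difference below has an error or a test, and all values describe these libraries. The methods give the depth only as a lower bound per library, and FPKM keep no read numbers. A change is the difference of log2(FPKM + 1), a scale on which changes from low levels come out smaller than they are. A gene is said to have risen or fallen when this difference was at least 1.5, or about 2.83-fold at high levels. The Cux2-CreERT2 line is reported to label some cortical interneurons as well. By single-cell sequencing of sorted cells, the study judged their share to be small, and those data were not analysed here.

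Between P1 and P7, 348 genes rose in Cux2 CPN (4.3% of those used) and 145 fell (1.79%). At a difference of at least 1, 723 genes rose (8.93%) and 402 fell (4.97%). The median change over all genes used was -0.022. The FPKM of these genes summed to 1125009 at P1, 1110656 at P3 and 1040835 at P7, of which Gm12563, a pseudogene of 102 nt, held 569540, 574207 and 490890 FPKM. Because a gene needed 10 FPKM at a single age to be used, a gene that reached this level only at P7 had to be higher there. This was so for 171 of the 348 genes that rose, and 45 of the 145 that fell reached it only at P1.

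**Figure D1:**
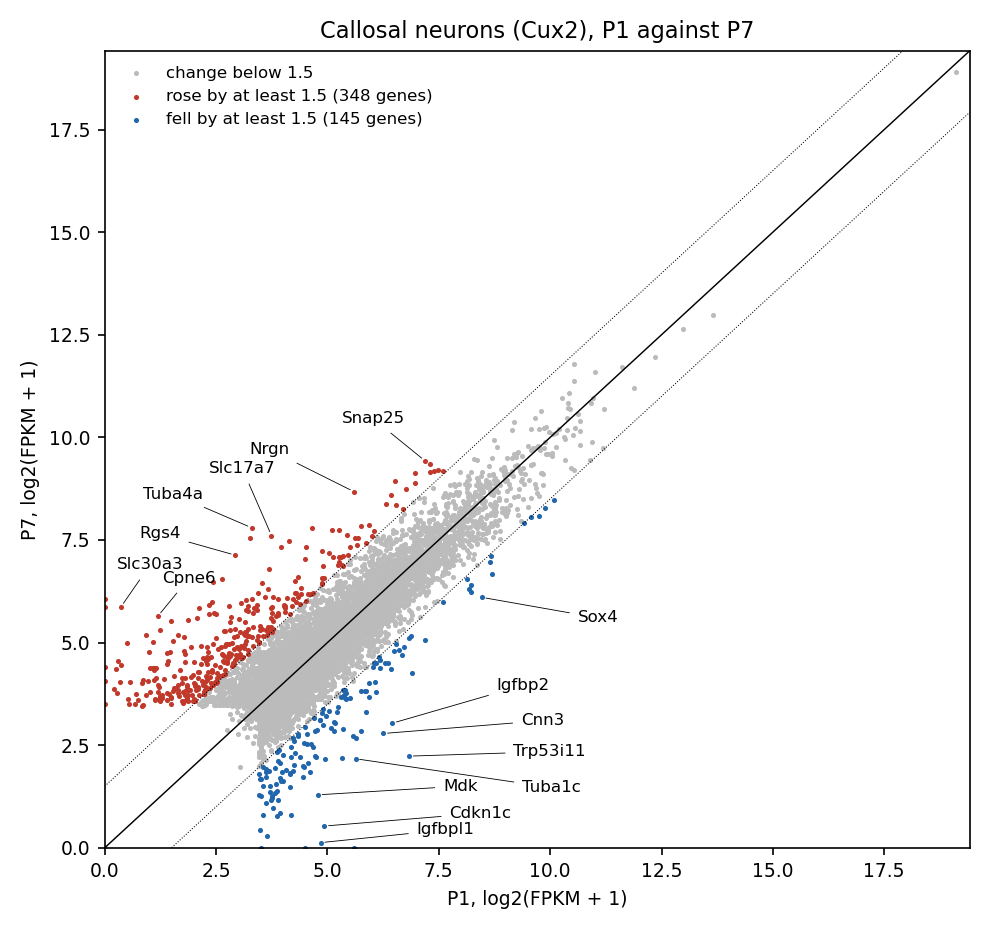
Level of each of the 8096 genes in Cux2 CPN at P1 (horizontal) and P7 (vertical), both as log2(FPKM + 1), with 1 point per gene. The solid line marks equal levels and the dotted lines a difference of 1.5; 348 genes lie above the upper dotted line and 145 below the lower one.

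At P3, the level lay between those at P1 and P7 in 343 of the 348 genes that rose and in 142 of the 145 that fell, against 5558 of all 8096 genes (68.7%). A large difference between P1 and P7, for which the genes were chosen, leaves wide room for a value between, so these counts are a description. Over the 2 days from P1 to P3, 31 genes rose by at least 1.5 (0.383%) and 14 fell (0.173%), and over the 4 days from P3 to P7, 114 rose (1.41%) and 56 fell (0.692%). The genes that rose from P1 to P7 had a median of 5.46 FPKM at P1, 10.3 FPKM at P3 and 28.3 FPKM at P7. Their median was 2.68 FPKM at E18.5, a late embryonic day, 53.2 FPKM at P21 and 45.8 FPKM at P48, ages that did not enter their choice. The genes that fell had a median of 27.6 FPKM at P1, 15.6 FPKM at P3 and 5.6 FPKM at P7, against 40 FPKM at E18.5, 2.76 FPKM at P21 and 2.56 FPKM at P48. By P3, at least 50% of the log2 change had taken place in 69 of the genes that rose and in 25 of those that fell.

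The largest rise of a protein-coding gene was that of Slc30a3, which encodes the transporter that loads zinc into glutamatergic synaptic vesicles. Its level was 0.289 FPKM at P1, 3.09 FPKM at P3 and 57.6 FPKM at P7, a difference of 5.51 on the log2 scale. Slc17a7, which encodes the vesicular glutamate transporter VGLUT1, went from 12.4 FPKM at P1 through 29.8 FPKM at P3 to 194 FPKM at P7, a rise of 3.86. In both genes, the later of the 2 steps was the larger one.

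Tuba4a, an alpha-tubulin gene, rose by 4.50, with 8.84, 22.3 and 222 FPKM at P1, P3 and P7. Slc6a7, a proline transporter gene of the brain, had 0.422, 2.34 and 30.9 FPKM at these ages and rose by 4.49. Cpne6, a calcium-dependent phospholipid-binding copine, had 1.29, 5.14 and 49.2 FPKM and rose by 4.45. These genes were at or below 8.84 FPKM at P1 and all at or above 30.9 FPKM at P7.

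Among signalling genes, Rgs4, a regulator of G-protein signalling, rose from 6.61 to 29 and then 139 FPKM, a difference of 4.20. Camk2a, the alpha subunit of calcium/calmodulin-dependent protein kinase II, had 5.24, 16.3 and 92.6 FPKM and rose by 3.91. Car10, a carbonic anhydrase-related gene, rose from 0.238 to 1.90 and 22.5 FPKM. The small nucleolar RNA host gene Snhg11 (8.61, 34.4 and 186 FPKM) and Gm12371, a processed transcript (0.196, 1.79 and 19.6 FPKM) were also among the 12 largest rises. Among these were also 3 short entries: U4 was listed at 0, 0 and 65.6 FPKM, an entry of U1 at 0, 0 and 20.1 FPKM, and Gm13390, a transcript of 143 nt, at 0, 26.5 and 57.4 FPKM.

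Among the falls, Igfbpl1, an insulin-like growth factor-binding-like gene known from newborn neurons, went from 27.9 FPKM at P1 to 6.99 FPKM at P3 and 0.0919 FPKM at P7, and fell by 4.72 on the log2 scale. Igfbp2, which encodes a secreted binding protein of insulin-like growth factors, had 87.1, 49 and 7.21 FPKM. Mdk, which encodes the growth factor midkine, had 26.7, 9.36 and 1.45 FPKM. Each of these growth-factor-related genes lost most of its expression within the week.

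Trp53i11, a gene described as induced by p53, had 113, 53.2 and 3.71 FPKM and fell by 4.60 on the log2 scale. Cdkn1c, the cyclin-dependent kinase inhibitor p57, had 29.6, 13 and 0.445 FPKM and fell by 4.40. Chaf1b, a subunit of the chromatin assembly factor that deposits histones on replicating DNA, had 17.1, 6.84 and 0.736 FPKM. Cnn3, an actin-binding calponin, had 75.5, 29.3 and 5.90 FPKM. Fst, which encodes the activin antagonist follistatin, had 11.5 and 8.07 FPKM at P1 and P3 and 0.214 FPKM at P7. The alpha-tubulin gene Tuba1c had 48.6, 11.1 and 3.50 FPKM and fell by 3.46, mostly before P3. The other 3 of the 12 largest falls were short entries: snoU109 (47.6, 0 and 0 FPKM), an entry of U1 (21.7, 22 and 0 FPKM) and the pseudogene Gm12328 of 197 nt (10.4, 3.49 and 0 FPKM).

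**Figure D2:**
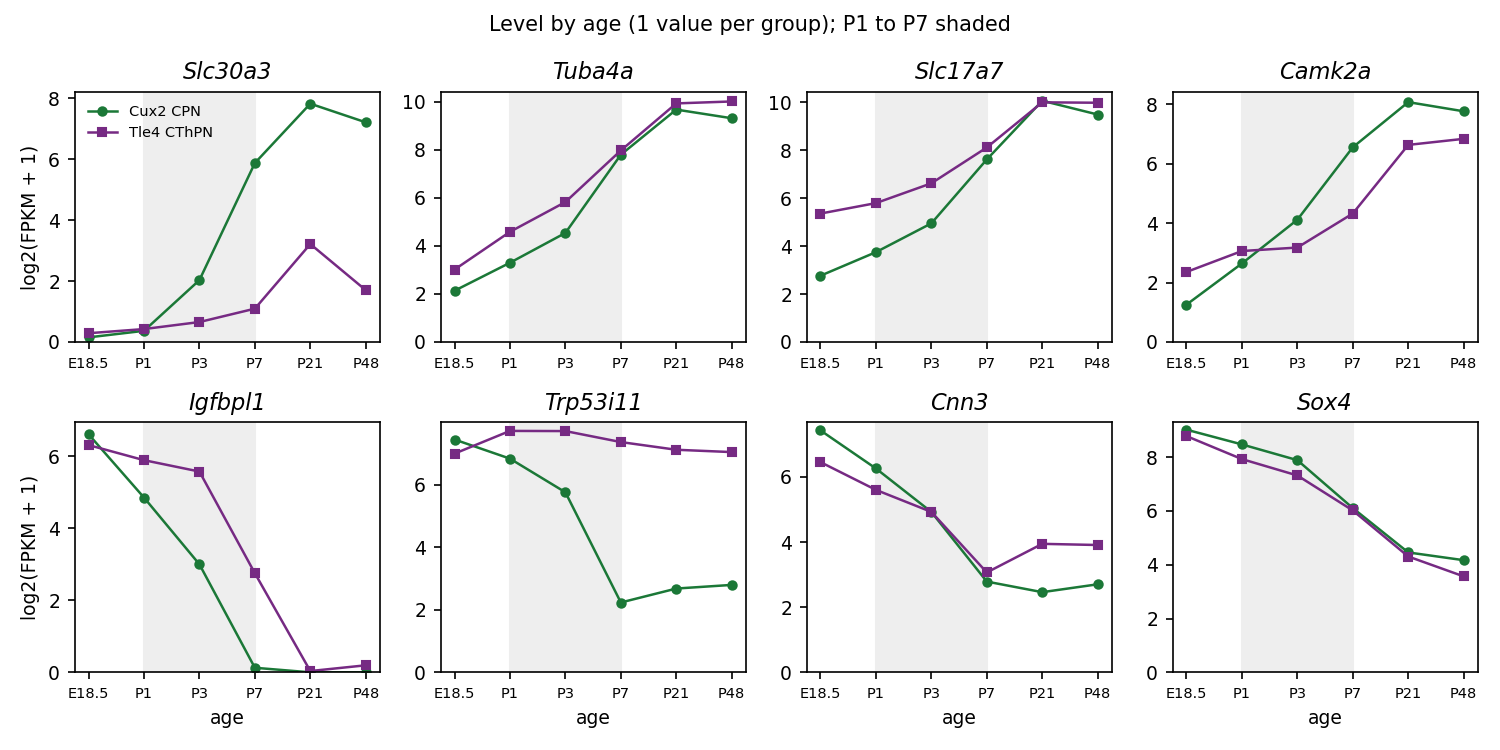
Level as log2(FPKM + 1) at the 6 ages for 4 genes that rose (upper row) and 4 that fell (lower row) from P1 to P7 in Cux2 CPN, with Cux2 CPN in green circles and Tle4 CThPN in purple squares; each point is 1 pooled value. From P1 to P7 (shaded), Slc30a3 in Cux2 CPN changed from 0.289 to 57.6 FPKM but stayed at 0.342 and 1.13 FPKM in Tle4 CThPN, and Trp53i11 changed from 113 to 3.71 FPKM against 210 and 164 FPKM.

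In NCBIM37, Slc30a3 lies on chromosome 5 from 31388479 to 31395988, Tuba4a on chromosome 1 from 75211549 to 75215828, Rgs4 on chromosome 1 from 171671608 to 171677773, and Slc17a7 on chromosome 7 from 52419291 to 52431508. Of the genes that fell, Igfbpl1 lies on chromosome 4 from 45822340 to 45839795, Trp53i11 on chromosome 2 from 93027705 to 93041916, and Cnn3 on chromosome 3 from 121129459 to 121161123.

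The promoters of the 3 protein-coding genes with the largest rises and the 3 with the largest falls are shown here, among genes with 1 entry in the RefSeq promoter table and longer than 300 nt, to let their CpG content be compared. Each runs from 250 bases before to 50 bases after the annotated start, 5′ to 3′ on the gene's strand, with RefSeq coordinates of GRCm38.p6, and CpG dinucleotides are in capitals. The first 3 rose and the last 3 fell.
Tuba4a (chr1:75219245-75219544, minus strand): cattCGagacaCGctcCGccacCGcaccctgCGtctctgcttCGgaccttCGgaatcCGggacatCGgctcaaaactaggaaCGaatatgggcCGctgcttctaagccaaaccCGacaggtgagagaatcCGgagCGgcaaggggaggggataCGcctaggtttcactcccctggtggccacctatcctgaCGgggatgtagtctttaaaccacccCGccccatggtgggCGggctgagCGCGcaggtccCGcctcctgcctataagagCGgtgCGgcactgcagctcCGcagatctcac
Rgs4 (chr1:169747593-169747892, minus strand): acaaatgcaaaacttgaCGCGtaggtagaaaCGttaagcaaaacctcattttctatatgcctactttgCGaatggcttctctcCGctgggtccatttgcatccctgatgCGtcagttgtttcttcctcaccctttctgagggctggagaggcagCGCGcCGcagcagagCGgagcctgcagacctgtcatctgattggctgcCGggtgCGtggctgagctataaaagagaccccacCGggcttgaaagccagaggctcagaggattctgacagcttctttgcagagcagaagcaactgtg
Rprml (chr11:103649259-103649558, plus strand): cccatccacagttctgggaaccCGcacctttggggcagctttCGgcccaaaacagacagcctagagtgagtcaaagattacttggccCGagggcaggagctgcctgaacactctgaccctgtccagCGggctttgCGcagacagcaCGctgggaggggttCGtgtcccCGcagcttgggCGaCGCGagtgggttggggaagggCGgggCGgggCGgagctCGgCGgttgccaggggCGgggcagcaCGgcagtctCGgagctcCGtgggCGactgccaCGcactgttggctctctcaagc
Trp53i11 (chr2:93187298-93187597, plus strand): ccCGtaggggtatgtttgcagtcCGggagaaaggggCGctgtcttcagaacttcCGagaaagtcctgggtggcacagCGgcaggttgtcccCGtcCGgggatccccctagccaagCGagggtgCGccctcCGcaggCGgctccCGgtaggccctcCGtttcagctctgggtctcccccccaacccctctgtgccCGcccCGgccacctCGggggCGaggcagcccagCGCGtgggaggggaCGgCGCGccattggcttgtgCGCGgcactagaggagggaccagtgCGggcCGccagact
Cnn3 (chr3:121426291-121426590, plus strand): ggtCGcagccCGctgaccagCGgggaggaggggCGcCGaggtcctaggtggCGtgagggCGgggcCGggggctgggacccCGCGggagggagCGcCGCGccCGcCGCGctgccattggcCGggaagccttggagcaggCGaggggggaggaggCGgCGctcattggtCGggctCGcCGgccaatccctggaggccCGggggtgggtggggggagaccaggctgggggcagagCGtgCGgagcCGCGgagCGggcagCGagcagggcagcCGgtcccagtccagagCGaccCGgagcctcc
Tuba1c (chr15:99029641-99029940, plus strand): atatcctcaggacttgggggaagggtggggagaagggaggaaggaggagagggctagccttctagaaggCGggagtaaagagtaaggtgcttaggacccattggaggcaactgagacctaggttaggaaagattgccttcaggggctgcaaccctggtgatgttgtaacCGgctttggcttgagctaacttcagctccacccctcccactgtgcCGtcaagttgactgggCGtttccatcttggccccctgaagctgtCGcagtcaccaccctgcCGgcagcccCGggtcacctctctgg
They hold 24 CpG in Tuba4a, 13 in Rgs4, 22 in Rprml, 26 in Trp53i11, 33 in Cnn3 and 7 in Tuba1c. Rprml, a relative of the cell cycle gene reprimo that was picked after its values were seen, had 1.83, 3.62 and 45.2 FPKM at P1, P3 and P7. The alpha-tubulin genes that changed in opposite directions, Tuba4a and Tuba1c, differ here by 24 against 7 CpG, but CpG-rich promoters were present on both sides.

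Over all genes longer than 300 nt with an annotated start in NCBIM37, the same window held a median of 21 CpG (quartiles 13 and 29, 7914 genes). The median was 14 CpG (quartiles 7 and 23) in 337 of the genes that rose and 18 CpG (quartiles 7 and 30.2) in 140 of those that fell. Fewer than 5 CpG were found in 12.5% of the former, 14.3% of the latter and 5.9% of all. The genes that rose spanned a median of 32.8 kb (quartiles 8.5 and 110.5 kb), those that fell 21.4 kb (6.7 and 78.4 kb) and all genes 23.2 kb (9.6 and 55.6 kb), with wide overlap in each case. These are descriptions of annotated sequence, and no test was made.

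For each list of genes that follows, the counts are to be read against all genes used, of which 4.3% rose and 1.79% fell, and the number of members that reached 10 FPKM only at the age where they were high is given beside them. Of the 33 genes of transmitter release used of a list of 37, 7 rose (21.2%, 1 of them reaching 10 FPKM only at P7), 0 fell, and the median change was 0.88 against -0.022 over all genes used. Besides Slc17a7, these included Sv2b (2.67, 8.84 and 45.6 FPKM at P1, P3 and P7), a synaptic vesicle glycoprotein gene, and Syn2 (11.9, 25.5 and 109 FPKM), a synapsin gene. Snap25, a plasma membrane SNARE of vesicle fusion, had 145, 253 and 689 FPKM and rose by 2.24. Syp, which encodes the vesicle protein synaptophysin, had 85.8, 135 and 389 FPKM and rose by 2.17. The synuclein gene Sncb (28.6, 56.2 and 149 FPKM) rose as well. The active zone genes Rims1 (21.1, 29.6 and 39.6 FPKM) and Unc13a (33, 28.3 and 37.6 FPKM) and the vesicular glutamate transporter gene Slc17a6 (18.7, 28.4 and 27.6 FPKM) stayed below the limit.

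Inhibitory receptors and chloride transport had the highest median change of the 19 pathway lists, 1.08, with 7 of the 21 genes used risen (33.3%, 1 only through P7) and 0 fallen, and 20 of the 21 were higher at P7 than at P1, against 48.4% of all genes used. Slc12a5, the chloride exporter KCC2 that lowers chloride in maturing neurons, had 9.71, 21.8 and 54.4 FPKM and rose by 2.37. The GABA-A receptor subunit genes Gabrd (3.01, 8.12 and 22 FPKM), Gabra4 (8.99, 19.0 and 40.9 FPKM) and Gabrb1 (8.03, 21.5 and 32.0 FPKM) rose by 1.87 to 2.52. Glrb, the beta subunit of the glycine receptor, rose from 40.0 to 116 FPKM, whereas Glra2, its fetal alpha subunit, was at 22.1 FPKM at P1 and 9.08 FPKM at P7, a change of -1.19.

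Potassium channel genes included 37 that were used of 57 listed, of which 11 rose (29.7%) and 0 fell, with a median change of 0.94. Of these 11 genes, 7 reached 10 FPKM only at P7 and would not have been used without their rise, so neither the count nor the median is free of the choice of genes. Kcnj9, a subunit of G-protein-gated inward rectifiers, had 2.45, 6.12 and 34.2 FPKM and rose by 3.35. Kcnt1 (3.27, 7.74 and 16.7 FPKM) and Kcnt2 (1.45, 3.59 and 12.2 FPKM), which encode sodium-activated channels, and the voltage-gated channel genes Kcnh5 (8.0, 15.3 and 37.1 FPKM) and Kcna2 (2.95, 5.19 and 10.9 FPKM) rose too. Of the sodium, calcium and HCN channel genes, 3 of 17 rose (17.6%, 1 only through P7) and 0 fell, among them Nalcn (3.00, 6.69 and 15.0 FPKM), the leak channel, and Scn2a1 (15.5, 30.0 and 56.3 FPKM), the main early sodium channel of axons.

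Calcium signalling genes had a median change of 1.03, with 7 of 29 risen (24.1%, 3 only through P7) and 0 fallen. Nrgn, which encodes the calmodulin-binding protein neurogranin, had 47.4, 157 and 408 FPKM and rose by 3.08. Hpca (90.3, 154 and 490 FPKM) and Vsnl1 (24.2, 63.5 and 219 FPKM), both neuronal calcium sensors, and Itpka (1.17, 2.23 and 19.2 FPKM), an inositol trisphosphate kinase, rose by 2.43 to 3.22. Itpr1, the inositol trisphosphate receptor, was at 22.5, 12.6 and 7.54 FPKM, a change of -1.46 that stayed below the limit.

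Of 17 genes of ionotropic glutamate receptors and their auxiliary subunits, 1 rose (5.88%, near the share of all genes), the AMPA receptor auxiliary subunit gene Cacng3 (13.8, 18.3 and 50.0 FPKM), and 0 fell. The obligatory NMDA receptor subunit gene Grin1 was at 35.6, 44.5 and 81.4 FPKM, Gria3 at 5.79, 10.2 and 17.9 FPKM, and Gria2 at 37.0, 48.6 and 56.0 FPKM. Of 29 genes of the postsynaptic density, 5 rose (17.2%, 3 only through P7) and 1 fell (3.45%, only through P1), with a median of 0.39. Ddn, which encodes dendrin, rose from 0.797 to 4.66 and 10.1 FPKM, and the scaffold gene Dlg1 from 4.20 to 4.70 and 15.2 FPKM. Homer3 was the member that fell, from 13.7 to 5.00 and 1.26 FPKM, while Homer1 was at 29.4, 31.7 and 34.7 FPKM and the scaffold gene Dlg4 (PSD-95) at 23.8, 25.7 and 36.7 FPKM.

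Of 36 synaptic adhesion genes, 4 rose (11.1%) and 0 fell, with a median of 0.41. All 4 reached 10 FPKM only at P7, so that they were used because they rose, and nothing is read from their number. These were Lrrtm4 (3.94, 9.41 and 24 FPKM) and Lrrtm3 (3.99, 9.06 and 18.4 FPKM), leucine-rich postsynaptic organisers, Il1rapl1 (3.27, 7.79 and 14.1 FPKM) and Flrt3 (4.43, 7.63 and 14.8 FPKM). The neurexin gene Nrxn3 was at 33.3, 34.8 and 35.9 FPKM.

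Transcription factors of projection neuron identity went the other way. Of the 41 genes used of 53 listed, 10 fell (24.4%, 1 only through P1) and 1 rose (2.44%), and the median change was -0.84, the lowest of the pathway lists. Sox4 (353, 235 and 67.7 FPKM) and Sox11 (20.7, 10.7 and 2.30 FPKM), SoxC factors of newly born neurons, fell by 2.37 and 2.72 on the log2 scale. The nuclear factor I genes Nfia (11.4, 3.30 and 1.13 FPKM), Nfib (105, 63.8 and 28.8 FPKM) and Nfix (681, 415 and 238 FPKM) all fell. The proneural-type factors Neurod6 (300, 163 and 83.3 FPKM) and Neurod2 (117, 63.9 and 34.7 FPKM), the POU factor gene Pou3f3 (41.6, 23.6 and 11.3 FPKM) and Sox5 (70.2, 53.2 and 23.9 FPKM) fell as well. Rora, which encodes a retinoic acid receptor-related orphan receptor, was the member that rose, from 5.57 to 14.3 and 22.4 FPKM, and its relative Rorb was at 18.8, 35.1 and 47.4 FPKM, a change of 1.29.

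Of the homeobox markers of upper-layer neurons, Cux2 was at 68.4, 46.6 and 36.4 FPKM and Cux1 at 327, 243 and 170 FPKM at P1, P3 and P7, changes of -0.89 and -0.94, and Pou3f2 was at 17.0, 13.3 and 9.36 FPKM. Over the list of 24 upper-layer and callosal genes used of 25, 2 rose (8.33%, both only through P7), 3 fell (12.5%), and the median change was -0.53. Of 6 deep-layer genes used of 15, 0 rose and 1 (Sox5) fell, and the median change was -0.99. At a limit of 1, 3 of the 6 fell, and 0 were higher at P7 than at P1. Tbr1 was at 40.6, 23.2 and 18.3 FPKM and Ntsr1 at 28.6, 23.1 and 17.45 FPKM. Below the minimum, Tle4 was at 6.32, 4.14 and 2.02 FPKM and Foxp2 at 2.00, 1.95 and 0.559 FPKM, whereas Fezf2 was at 3.18, 4.66 and 8.24 FPKM, a change of 1.15.

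Genes of axon growth and guidance were for the most part within the limit. Of 30 guidance receptor genes, 0 rose and 2 fell (6.67%, 1 only through P1), numbers too small to set apart from the shares of all genes, namely Epha3 (15.1, 10.5 and 3.80 FPKM), an ephrin receptor, and Plxnb1 (11.3, 7.52 and 2.62 FPKM), a semaphorin receptor. Robo1, a Slit receptor known from callosal axons, was at 12.3, 7.65 and 4.17 FPKM, a change of -1.37. Among 24 ligands and adhesion molecules, 4 rose (16.7%, 1 only through P7) and 1 fell (4.17%). The contactin genes were found on both sides: Cntn2, a molecule of growing axons, fell from 118 to 38.3 and 18.2 FPKM, and Cntn1 (39.6, 60.4 and 136 FPKM), Cntn3 (3.86, 8.50 and 17.1 FPKM) and Cntn5 (7.34, 12.9 and 29.2 FPKM) rose. Of 28 growth cone genes, 0 rose and 1 fell (3.57%), Trim67 (85.0, 57.3 and 19.7 FPKM), a ubiquitin ligase gene, and Gap43, the major growth-associated protein gene, was at 806, 1161 and 1416 FPKM.

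Of 42 genes of microtubules and neuronal migration, 1 rose (2.38%), Tuba4a, and 2 fell (4.76%), Tuba1c and Dab1, shares near those of all genes. Dab1, the intracellular adaptor of reelin signalling, had 281, 180 and 92.2 FPKM and fell by 1.6 on the log2 scale. Dcx, which encodes the migration protein doublecortin, was at 242, 228 and 141 FPKM. The main alpha-tubulin gene Tuba1a was at 13005, 10367 and 8099 FPKM, so that Tuba4a held 2.66% of the FPKM of both genes at P7 against 0.07% at P1. The alpha-tubulin genes are close in sequence, and how reads that fit several of them were divided is not given in the sources used here, so their values are uncertain.

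Of 18 growth factor genes and their receptors, 1 rose (5.56%) and 3 fell (16.7%, 2 only through P1), with a median of 0.15. Ntf3, which encodes neurotrophin-3, had 23.2, 6.93 and 2.60 FPKM and fell by 2.75, as Igfbpl1 and Igfbp2 did by 4.72 and 3.42. Fgf12, an intracellular fibroblast growth factor homologue that binds sodium channels, rose from 157 to 296 and 570 FPKM. The neurotrophin receptor gene Ntrk2 was at 81.4, 80.1 and 85.6 FPKM.

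All 20 genes of glycolysis and lactate metabolism that were used, of 28 listed and 24 in the table, were higher at P7 than at P1 (48.4% of all genes used were), and 3 rose (15%), Aldoa (108, 172 and 429 FPKM), Gpi1 (29.0, 40.1 and 116 FPKM) and Eno2 (38.7, 48.7 and 134 FPKM), an aldolase, the glucose phosphate isomerase and the neuronal enolase. Of 23 genes of cholesterol synthesis, 0 rose and 0 fell, with a median of -0.25. Among genes that write, read or remove DNA methylation, 0 of 13 rose and 0 fell, and Dnmt3a, a de novo methyltransferase, was at 40.5, 44.4 and 69.0 FPKM and Dnmt1, the maintenance enzyme, at 34, 26.2 and 17.9 FPKM.

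Of 11 activity-regulated genes used of 31, 3 rose (27.3%; Rgs4, Camk4 and Rgs2) and 0 fell. Camk4, a nuclear calcium-dependent kinase, had 8.35, 20.0 and 53.4 FPKM. The immediate early gene Fos was at 20.1, 15.9 and 10.1 FPKM, and Egr1 at 21.5, 13.4 and 30.9 FPKM. Of 8 genes induced by dissociation that were used, 0 rose and 0 fell, with a median of -0.54. Of 11 genes of neurofilaments and the axon initial segment, 2 rose (18.2%), Nefl (7.92, 16 and 44.4 FPKM), the light neurofilament, and Cntn1.

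**Figure D3:**
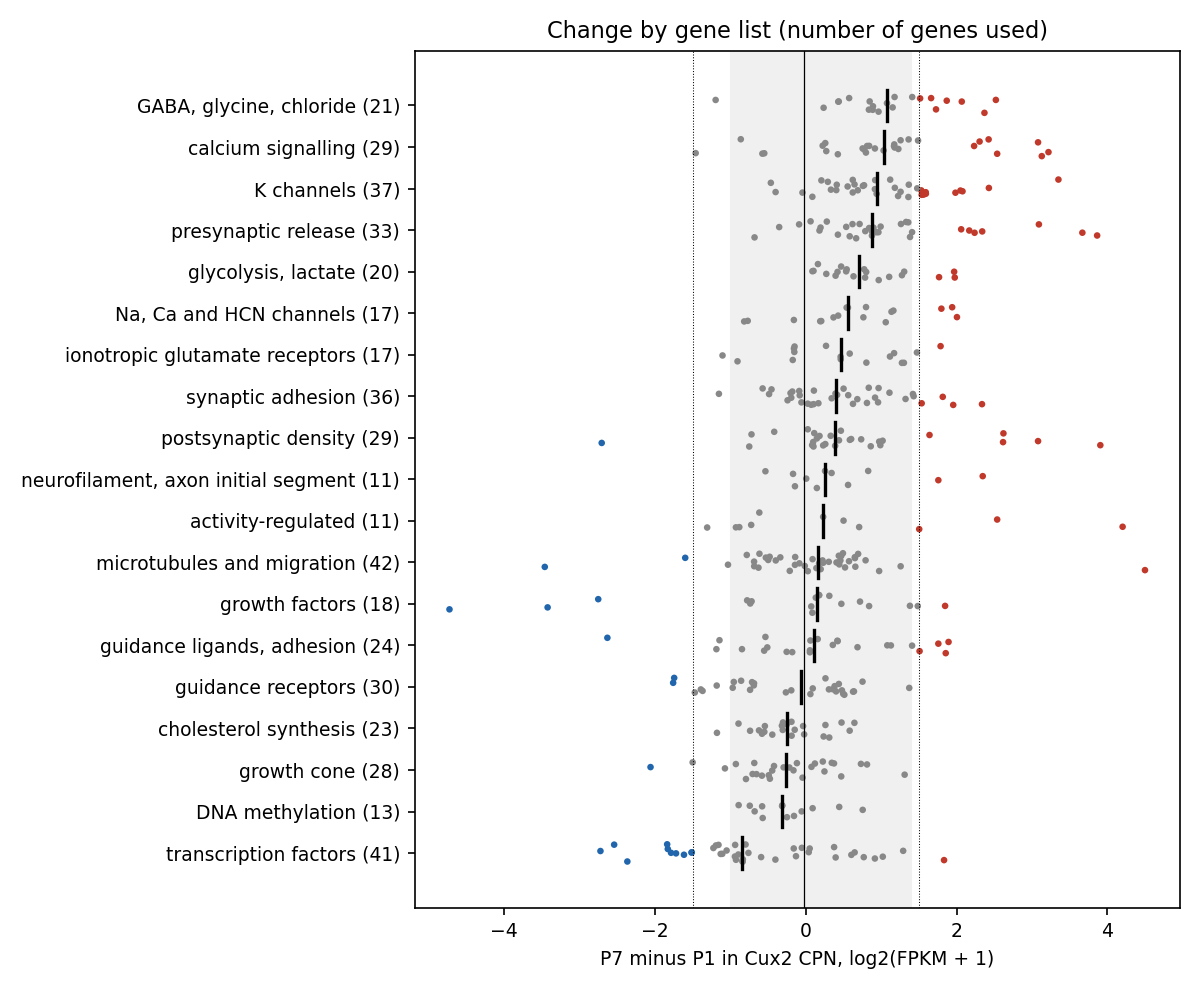
Change from P1 to P7 in Cux2 CPN, in log2(FPKM + 1), for each gene used of 19 pathway lists, with the number of genes in brackets, the median as a black bar, genes past 1.5 in red or blue, and the range from the 5th to the 95th percentile of all genes used (-1 to 1.4) in grey. The medians run from -0.84 for transcription factors to 1.08 for GABA, glycine and chloride genes.

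A change in sorted cells can reflect fewer cells of a type or less RNA per cell, and bulk values cannot tell these apart. The summed FPKM of interneuron markers was 761 at P1, 797 at P3 and 464 at P7, with 1 of 14 genes used risen and 2 fallen. Of these 14 genes, 7 were higher at P7 than at P1 (48.4% of all genes used were). In Tle4 CThPN the same markers summed to 845, 645 and 185 FPKM. Gad1 and Gad2, which make GABA, were at 18.53, 28 and 34.2 FPKM and at 12.1, 13.1 and 12.8 FPKM. Npy, which made up most of the Cux2 CPN sum at P1, fell from 415 to 333 and 102 FPKM and Dlx2 from 14 to 14.9 and 4.26 FPKM. The part of these cells in the changes was not tested. The astrocyte list summed to 121, 152 and 308 FPKM, and 5 of its 14 genes were used. Of these, Slc1a2 (1.21, 2.96 and 19.8 FPKM), Sparcl1 (22, 46 and 160 FPKM) and Clu (23.9, 39.2 and 72.0 FPKM) rose, Slc1a2 being used only through P7. Apoe, a lipid carrier gene, was at 10.9, 16.2 and 21.9 FPKM, and Fabp7, a fatty acid-binding protein gene of radial glia and astrocytes, at 52.5, 39.2 and 24.1 FPKM, a change of -1.09. The defining markers Aldh1l1 (1.04, 0.471 and 1.22 FPKM), Gja1 (0.541, 0.688 and 0.931 FPKM) and Slc1a3 (3.36, 3.03 and 2.29 FPKM) stayed at or below 3.36 FPKM. The part of astrocytes in the changes was not tested. The microglial complement genes C1qa, C1qb and C1qc lay between 0.158 and 0.503 FPKM at P1 and P3 and between 1.73 and 2.91 FPKM at P7. Oligodendrocyte lineage genes summed to 8.94, 13.05 and 11.4 FPKM, and the haemoglobin genes to 38, 10.2 and 4.45 FPKM.

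Of 20 pairs of paralogues known or thought to shift from 1 member to the other as neurons mature, 18 had both members in the table, and the share of the later member was higher at P7 than at P1 in 15 of them in Cux2 CPN and in 14 in Tle4 CThPN. Camk2a held 1.44% of the FPKM of Camk2a and Camk2b at P1, 4.82% at P3 and 18.52% at P7. The share of the sodium channel gene Scn1a in Scn1a and Scn3a was 9.69%, 16% and 25.1%. Tubb2a held 57.6%, 64.9% and 78.0% of Tubb2a and Tubb2b, and Syt1, a fast calcium sensor of release, 52.3%, 53.7% and 68.5% of Syt1 and Syt4. How reads that fit both members of a pair were divided is not given in the sources used here, so shares within tubulin pairs are uncertain. The share of Grin2a among NMDA receptor genes Grin2a and Grin2b was 17.6%, 18.1% and 19.5% and reached 40.3% at P21. The share was lower at P7 in 3 pairs, among them Ldhb in Ldha and Ldhb (27.7%, 19.9% and 19.1%) and Dlg4 in Dlg3 and Dlg4 (45.5%, 43.8% and 41.1%).

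**Figure D4:**
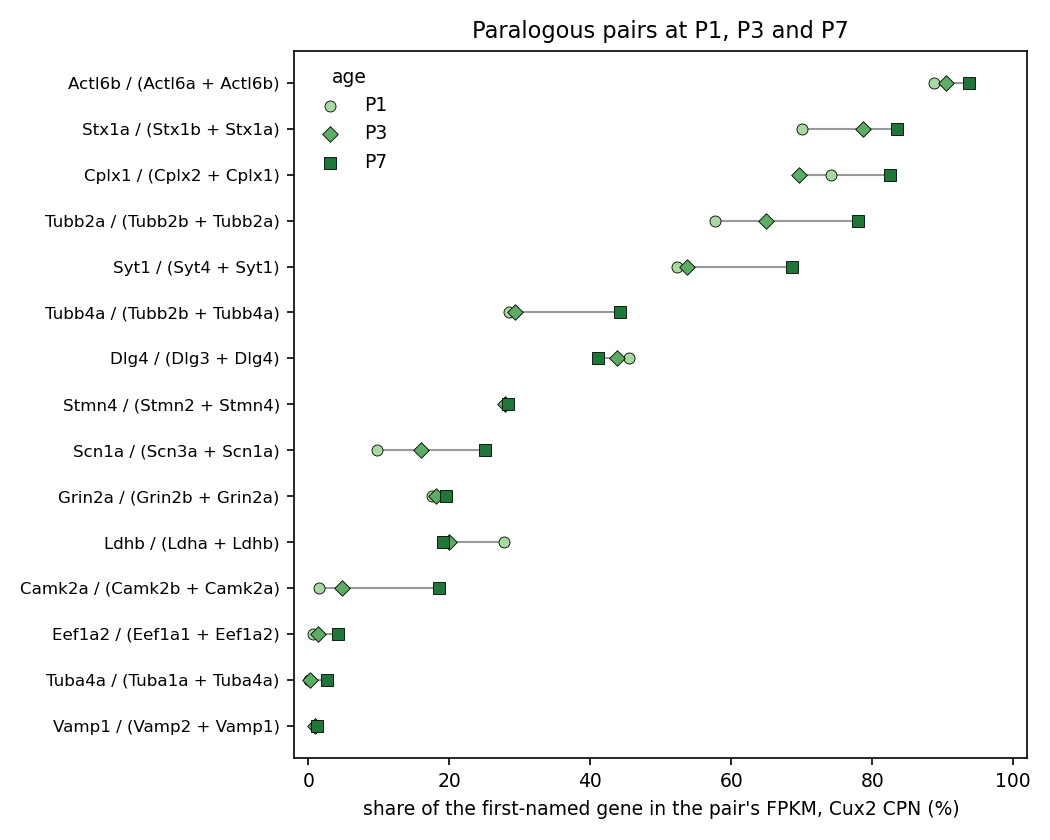
Share of the gene named before the slash in the summed FPKM of its pair (%) in Cux2 CPN at P1 (circles), P3 (diamonds) and P7 (squares) for 15 of the 18 pairs with both members in the table; each point is 1 pooled value. Camk2a moved from 1.44% to 18.52% and Ldhb from 27.7% to 19.1%.

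At a difference of at least 1 from both P1 and P7, 9 genes peaked at P3 and 1 had a trough. Of the 9 peaks, 6 were short entries of U1, U4atac, U11 and Gm10337, with U4atac listed at 0, 180 and 0 FPKM and U11 at 0, 53.5 and 0 FPKM. The others were Cisd3, a gene of an iron-sulphur protein of mitochondria (19.1, 1350 and 28.6 FPKM), E2f6, a transcriptional repressor gene (6.97, 31.8 and 5.80 FPKM), and B230307C23Rik (14.2, 86.3 and 22.7 FPKM). Cisd3 was also at 1428 FPKM at P48, against 14.3 FPKM at E18.5 and 44.3 FPKM at P21. The trough was that of Wscd2 (12.5, 0.778 and 9.44 FPKM). The 4 next lowest at P3 did not reach the limit, among them the interneuron gene Calb2 (4.79, 2.28 and 12.1 FPKM) and Hs3st1 (46, 29.0 and 48.2 FPKM), a heparan sulphate sulphotransferase gene.

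The same genes were then compared with Tle4 CThPN, whose libraries took no part in choosing them except that Gm-number genes listed at 0 throughout a class had been left out. Among the 8096 genes, 135 rose from P1 to P7 in Tle4 CThPN (1.67%) and 58 fell (0.716%), against 348 and 145 in Cux2 CPN. With genes chosen by their level in Tle4 CThPN instead, 145 of 7795 rose and 71 fell. Of the genes that rose in Cux2 CPN, 323 of 348 (92.8%) were higher at P7 than at P1 in Tle4 CThPN, against 51.8% of all genes used, and 103 rose there by at least 1.5. Of those that fell, 125 of 145 (86.2%) were lower at P7 in Tle4 CThPN, against 48.1% of all, and 34 fell by at least 1.5. The median change in Tle4 CThPN was 1.03 for the former and -0.98 for the latter, against 2.06 and -2.0 in Cux2 CPN, where the genes had been chosen for it. At P1, the genes that rose had a median of 5.46 FPKM in Cux2 CPN against 7.68 FPKM in the other class, and at P7 28.3 against 16.8 FPKM.

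The difference of change between the classes was largest, among genes over 300 nt, for Slc30a3, which was at 0.342, 0.575 and 1.13 FPKM in Tle4 CThPN. Gpr6, an orphan receptor gene, was at 0.387, 0.507 and 0.180 FPKM there against 0.165, 0.732 and 13.7 FPKM in Cux2 CPN, and Enpp2, which encodes the lysophosphatidic acid-producing enzyme autotaxin, at 1.14, 1.26 and 1.68 FPKM against 2.14, 8.04 and 35.5 FPKM. Gpr6, Enpp2, Lmbr1 and Dhrs3 were picked for this account after their values were seen. Lmbr1 had the next largest difference after Slc30a3 (153, 10.9 and 12.5 FPKM in Tle4 CThPN against 9.49, 13.5 and 17.8 FPKM in Cux2 CPN). This difference rests on the Tle4 CThPN value at P1, since Lmbr1 was at 8.49 FPKM there at E18.5, 9.90 FPKM at P21 and 9.96 FPKM at P48. At P1, Slc30a3, Gpr6 and Enpp2 were at or below 2.14 FPKM in both classes. Rgs4 and Sv2b, by contrast, were at 63.0 and 39.1 FPKM in Tle4 CThPN at P1, 98.9 and 70.0 FPKM at P7, and reached 139 and 45.6 FPKM in Cux2 CPN from 6.61 and 2.67 FPKM. Among all genes, the short entries U4, Gm13390 and U1 were among the 5 largest differences as well. Tuba4a (23.0, 55.8 and 250 FPKM) and Slc17a7 (54.3, 97.0 and 275 FPKM) also rose in Tle4 CThPN, and Cpne6 was at 8.93, 21.1 and 59.7 FPKM.

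In the other direction, Trp53i11 was at 210, 210 and 164 FPKM in Tle4 CThPN, and Dhrs3, a retinaldehyde reductase gene, at 11.9, 14.1 and 21.4 FPKM against 25.7, 13.6 and 3.63 FPKM in Cux2 CPN. Tuba1c was at 1.63, 43.6 and 25.4 FPKM in Tle4 CThPN, the lowest of the differences. The haemoglobin gene Hba-a1 was at 14.2, 2.87 and 0.790 FPKM in Cux2 CPN, and its values in the other class were 2.16, 0.990 and 3.37 FPKM. It is nearly identical to Hba-a2, so its values are uncertain.

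Across the genes used, 7 changed by at least 1 in opposite directions in the classes, 1 of them the short RNA SCARNA16. Alcam, a cell adhesion molecule of growing axons, was at 8.87, 16 and 34.4 FPKM in Cux2 CPN, while its Tle4 CThPN values were 17.46, 11.2 and 6.6 FPKM. Lrrtm4 was at 18, 12.4 and 5.49 FPKM in Tle4 CThPN, opposite to its rise in Cux2 CPN. Rorb and Txnip, a thioredoxin-binding protein gene, were likewise higher at P7 in Cux2 CPN and lower in Tle4 CThPN. Myc went from 65.9 through 47.1 to 15.6 FPKM in Cux2 CPN, whereas Tle4 CThPN had 21.9, 33.2 and 48.8 FPKM, and Tuba1c and SCARNA16 went the same way. These 7 genes were picked for this account after their values were seen.

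**Figure D5:**
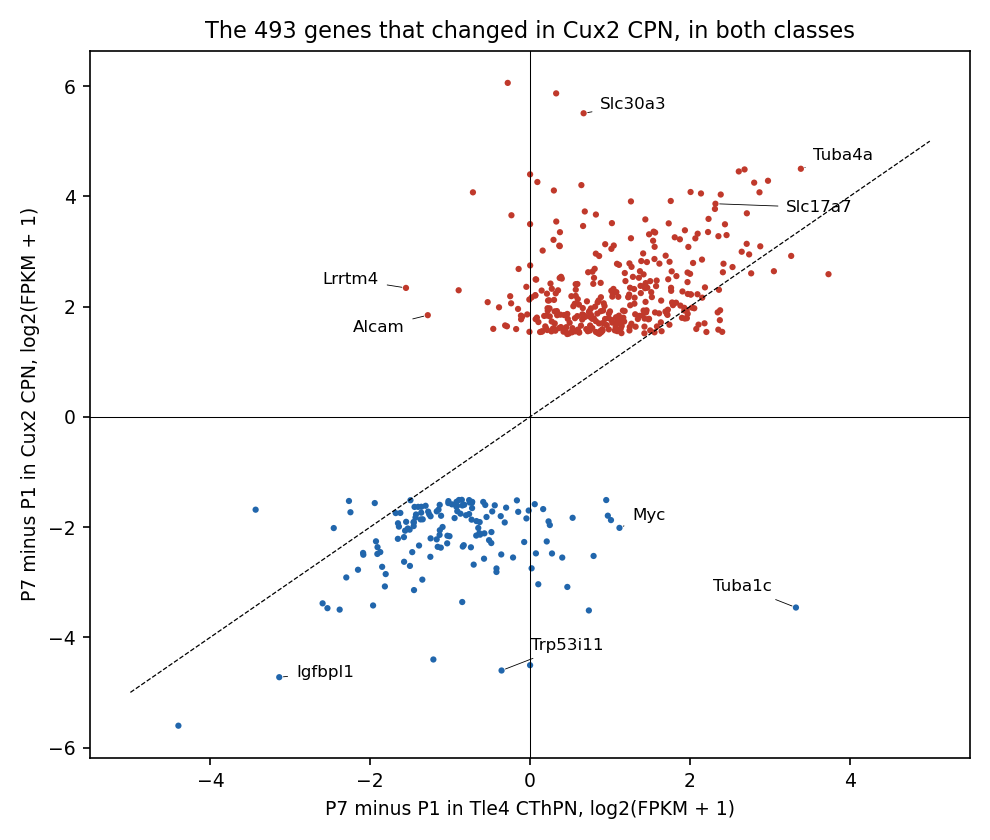
Change from P1 to P7 in Tle4 CThPN (horizontal) and Cux2 CPN (vertical), both in log2(FPKM + 1), for the 493 genes that rose (red) or fell (blue) by at least 1.5 in Cux2 CPN; the dashed line marks equal changes. Most points lie on the same side of 0 in both classes, 323 of the 348 rises and 125 of the 145 falls, and Slc30a3, Lrrtm4, Trp53i11 and Tuba1c are labelled far from the line.

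Of the 19 pathway lists, 13 had medians of the same sign in both classes and 6 of opposite signs. List members were admitted by their level in Cux2 CPN, some of them only through P7, which can raise the medians there relative to Tle4 CThPN, so the values are set side by side as a description and no difference between the classes is read from them. The median change of GABA, glycine and chloride genes was 0.55 in Tle4 CThPN and 1.08 in Cux2 CPN, that of potassium channels 0.35 and 0.94, and that of calcium signalling 0.44 and 1.03. Presynaptic genes had medians of 0.59 and 0.88, glycolysis 0.71 and 0.70, and transcription factors -0.66 and -0.84. Cholesterol synthesis was at 0.30 in Tle4 CThPN and -0.25 in Cux2 CPN, and synaptic adhesion at -0.04 and 0.41. The others of opposite sign were activity-regulated genes (-0.22 in Tle4 CThPN and 0.23 in Cux2 CPN), growth factors (-0.28 and 0.15), neurofilament and initial segment genes (-0.06 and 0.26), and guidance ligands and adhesion molecules (-0.02 and 0.11).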

How the data were processed

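Neurons were sorted from 12 groups of 2 libraries each, and 1 table of gene FPKM was deposited. According to the study's methods and the labels, the authors trimmed reads, aligned them to mm9 (NCBIM37) with TopHat2 and computed FPKM per group with Cuffdiff, pooling both libraries; the normalization option is not given in the sources used here. The table keeps genes past an expression minimum. From these values, differences of log2(FPKM + 1) were computed with a minimum of 10 FPKM and limits of 1.5 and 1 (Python 3.11.15, numpy 2.4.6, pandas 2.3.3, scipy 1.17.1, matplotlib 3.10.9). The steps were also run on simulated data with planted changes well past the limit, which checks the code only. No test between groups was possible with 1 value per group, and read depth per library was not analysed here. Genes named are the 12 largest rises and falls, the 5 highest peaks and 5 deepest troughs at P3, and all other peaks past the limit. Also named are the 5 largest differences each way between classes, and leading or defining members of the lists and pairs. Gm12563 was named for its level, and any others are marked in the text. Members, lists and pairs were chosen with earlier results of these data known. Alternatives were another pseudocount, scaling by median ratios, other minimums and limits, and leaving out genes of at most 300 nt. Some genes these rules would name are not reported here.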

Additional observations from a re-analysis of the deposited data

Results flagged for a closer look

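In 2 genes the change from P1 to P7 passed 1.5 in opposite directions in the classes. For Lrrtm4 the change in Cux2 CPN exceeded that in Tle4 CThPN by 3.89 on the log2 scale. For Tuba1c the difference was -6.79. Each group has 1 pooled value, so these differences were not tested, and Tuba1c is close in sequence to other alpha-tubulin genes.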

How the results depend on the processing

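No paired analysis was possible because the table holds 1 pooled value per group and its columns carry no replicate, and for the same reason no replicate could be left out. In Cux2 CPN, a minimum of 30 FPKM (4429 genes) gave 166 rises and 66 falls from P1 to P7, 3 falls from P1 to P3, and 53 rises and 22 falls from P3 to P7, with 0 troughs at P3. A limit of 1 gave 723 and 402 from P1 to P7, 137 and 40 from P1 to P3, and 311 and 166 from P3 to P7. A limit of 2 gave 183 and 72, 9 and 4, and 56 and 24. A pseudocount of 0.1 gave 62 rises from P1 to P3 and 2 troughs, and no minimum (9623 genes) also gave 2 troughs. A limit of 0.5 gave 23 peaks and 14 troughs at P3, and without short genes 3 peaks were left. In Tle4 CThPN, rises and falls from P1 to P7 were 64 and 29 with the higher minimum, 205 and 106 with none, 349 and 199 at a limit of 1, and 54 and 22 at 2, and the pseudocount of 0.1 gave 90 falls. The other counts stayed within 1.5 times. Fewer genes tested or another limit gives fewer or more calls by construction, and the cause of the pseudocount differences was not tested. Rises made up 70.6% of changed genes in Cux2 CPN, and between 64.3% and 72.4% under the alternatives. Without read numbers or replicate values, neither counting error nor the spread between libraries can be given.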
